A study of Mus musculus with 6 samples.

Results

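The genes described are the collagen chain genes: protein-coding genes whose symbol is Col, a type number, the letter a and a chain number, with nothing after. The rule uses names and biotype only, no measured value, and it found 44 members among 78317 genes. They were divided by collagen type number into 11 fibrillar, 9 network, 6 beaded and 9 FACIT genes, and 9 genes of other classes. Expression was measured by sequencing messenger RNA from MCEC, an immortalised mouse cell line labelled as cardiac endothelial. There were 3 wild-type libraries (control) and 3 libraries of cells carrying a short hairpin RNA against Fat4, labelled ShFat4 (knockdown). No treatment, time point or animal age is given in the labels, both groups are the same line, and whether the wild-type cells carried a non-targeting hairpin or the hairpin cells came from 1 clone was not stated in the sources used here. No label says whether replicates are separate cultures, so p-values reflect library-to-library spread that may be technical only.

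Collagens are extracellular proteins of chains that wind into a triple helix. The fibrillar types build the cable-like fibrils of interstitial matrix. Network types form sheets, type IV in basement membranes and type VIII in the hexagonal lattices beneath some endothelia. Type VI forms beaded microfilaments, and FACIT collagens, short for fibril-associated collagens with interrupted triple helices, sit on fibril surfaces. Chains assemble inside the endoplasmic reticulum, where prolines and lysines are hydroxylated and a dedicated chaperone holds the helix, before export, propeptide removal and crosslinking. Several types are heterotrimers, so the balance between chains of 1 type bears on what can be assembled.

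The libraries held 10305810 to 11870091 counts, of which collagen chain genes took 0.428% to 0.464% in control and 0.324% to 0.37% in knockdown libraries. Control replicate 1 lay farther from the other controls (chi-square per degree of freedom of 5.11 and 9.1) than those did from each other (2.43), so counts are also given without it. Fat4, an atypical cadherin and the target of the hairpin, had 10, 22 and 31.5 counts in the control and 8.5, 10 and 9 counts in the knockdown libraries, so control replicate 1 lay within the knockdown range (log2 fold change -1.17, SE 0.35, edgeR quasi-likelihood adjusted p = 0.033). The endothelial label was checked against 12 defining markers: 6 of them (Vwf, Erg, Cldn5, Tie1, Emcn and Robo4) had no count in any library, and 4 more were too low to test. Their summed level was 10.25 to 10.6 CPM in control and 9.55 to 10.7 CPM in knockdown libraries, where CPM is the count scaled to library size, itself adjusted by TMM. Egfl7 and Esam, with control means of 7.25 and 1.99 CPM, made up most of it, while Pecam1 averaged 0.52 and Cdh5 0.03 CPM. Mesothelial markers summed to 1755 to 1855 CPM in control and 1544 to 1586 CPM in knockdown libraries, with none of 12 at 0 and 6 of 12 called lower in the knockdown, where 8.44% of all tested genes were called lower.

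Promoter stretches are shown for 4 collagen genes that fell, from the fibrillar, beaded and network classes, and for Col1a2, because its partner chain gene was abundant while it was scarce. They come from RefSeq windows on GRCm38.p6, a build other than the GRCm39 of the deposited table, and 35 of the 44 genes matched a window. The 4 longer stretches are the 150 bases before the most upstream start of the gene, and the Col1a2 stretch is 30 bases around a CCAAT box upstream of its start. Capitals mark matches, on either strand, to CAGAC (the Smad box), CCAAT (bound by NF-Y), CATTCC (bound by TEAD factors) and TATAAA.
Col3a1, chr1:45311388-45311537, plus strand: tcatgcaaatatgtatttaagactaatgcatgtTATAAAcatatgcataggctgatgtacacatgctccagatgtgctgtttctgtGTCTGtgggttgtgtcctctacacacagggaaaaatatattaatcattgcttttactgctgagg
Col5a1, chr2:27886275-27886424, plus strand: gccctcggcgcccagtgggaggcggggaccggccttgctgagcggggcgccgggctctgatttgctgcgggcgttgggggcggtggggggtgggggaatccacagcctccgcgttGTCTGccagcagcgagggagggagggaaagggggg
Col6a2, chr10:76623631-76623780, minus strand: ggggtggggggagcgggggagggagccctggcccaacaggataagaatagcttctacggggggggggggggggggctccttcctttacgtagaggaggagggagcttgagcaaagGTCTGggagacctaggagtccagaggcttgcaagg
Col8a1, chr16:57754738-57754887, minus strand: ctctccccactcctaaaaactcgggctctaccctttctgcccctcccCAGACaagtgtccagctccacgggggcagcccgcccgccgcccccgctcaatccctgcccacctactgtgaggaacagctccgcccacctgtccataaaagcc
Col1a2, chr6:4505497-4505526, plus strand: aaaagaatggaaCCAATttaagaagccccg

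The stretches differ in base composition, from 37.3% G and C for Col3a1 to 74.7% for Col5a1. All 4 longer ones hold a Smad box, but they were picked from only 5 genes that fell and had a window. Over whole windows of 250 bases before to 50 after a start, CAGAC or its reverse complement was in 49.6% of all 32851 windows and in 4 of 6 windows of collagen genes that fell, so its presence is common. CCAAT was in 37.4% of all windows and in 0 of those 6, CATTCC in 14.7% and 2, and TATAAA in 13.6% and 1. The window of Col6a1, the gene left out of the stretches shown, held none of the 4 motifs. Col1a1 and Col5a2, which also fell, had no window.

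Collagen expression in these cells was concentrated in a few chains. Of the 44 genes, 18 had enough counts to be tested (edgeR's filterByExpr), 16 had counts too low to test and 10 had none in any library. The 18 were 8 fibrillar, 5 network, 2 beaded and 2 FACIT genes and 1 multiplexin gene. Col1a1 gave 45.0% ± 0.60 of all collagen counts in control libraries, Col5a2 24.8% ± 0.16, Col3a1 8.48% ± 0.29 and Col4a1 7.24% ± 0.11 (SD, n = 3). Per kilobase of exon, the order in control means was Col1a1 (299 CPM per kilobase), Col5a2 (113), Col4a1 (42.3), Col3a1 (37.7), Col8a1 (23.9), Col6a1 (21.2), Col4a2 (19.4), Col5a1 (10.9), Col6a2 (7.30), Col4a5 (4.07) and Col16a1 (2.77), and every other gene was under 1. How evenly reads cover a transcript was left unstated in the sources at hand, so this order assumes even coverage.

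**Figure D1:**
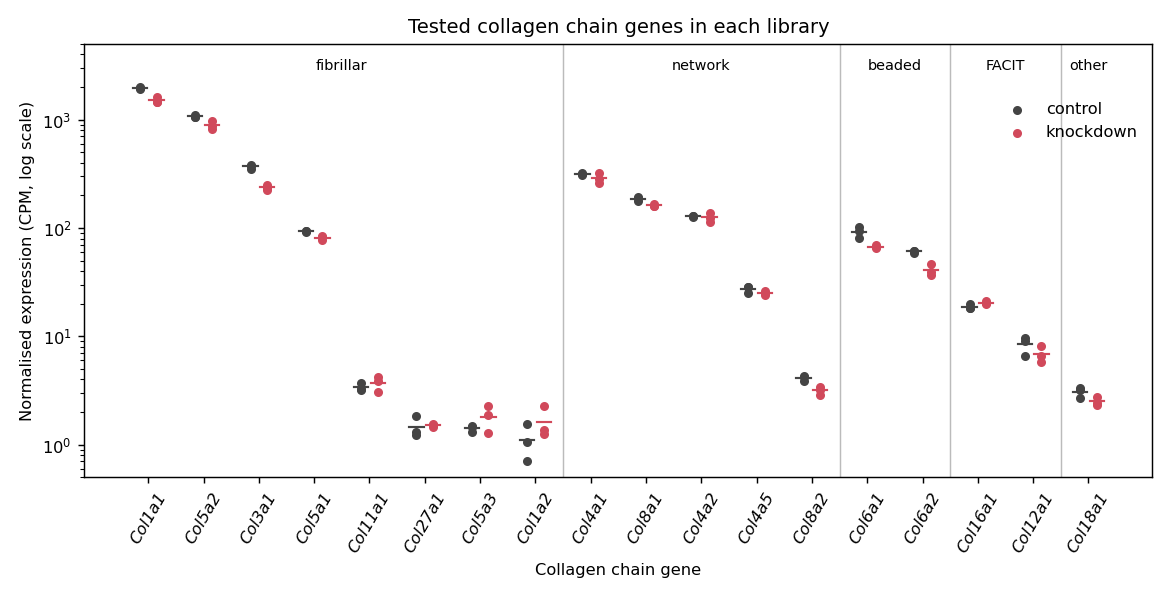
Normalised expression (CPM, log scale) of the 18 tested collagen chain genes by class, 1 point per library with a line at the mean of 3 control (grey) and 3 knockdown (red) libraries. Col1a1 and Col5a2 lie highest in both groups, Col3a1 lies next in control and below Col4a1 in the knockdown, the groups of Col1a1, Col5a2 and Col3a1 separate, and those of the fibrillar genes under 5 CPM overlap.

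In the knockdown, 7 of the 18 tested collagen genes fell and 0 rose (quasi-likelihood test in edgeR at an adjusted p under 0.05, by Benjamini and Hochberg). Those that fell were Col1a1, Col3a1, Col5a1 and Col5a2 of the fibrillar class, Col6a1 and Col6a2 of the beaded class and Col8a1 of the network class. Among all 13372 genes tested, 8.44% were called lower and 8.94% higher. Groups without overlap were common: 17.5% of all tested genes had every knockdown library below every control, and 17.4% had every one above. Among the 18 collagen genes these numbered 8 and 1. The median log2 fold change of the 18 was -0.20, against -0.01 over all tested genes. All 7 genes that fell were among the 11 with a mean of at least 10 CPM in a group, where 10.7% of all genes of that level were called lower, and 0 of the 7 genes under that level passed. Without control replicate 1, 8 fell and 0 rose, the added gene being Col12a1. Calls grew over the whole table in that fit, with 10.7% of all tested genes called lower and 3077 genes changed against 2324. In bulk RNA, fewer cells that make a collagen and less of its RNA per cell cannot be told apart. The mesothelial markers that were lower in the same libraries were Cldn15 (log2 fold change -0.75), Lrrn4 (-0.57), Upk3b (-0.42), Bnc1 (-0.34), Wt1 (-0.19) and Krt7 (-0.72). The other 6 did not pass: Upk1b, the most abundant of the 12 in both groups, had 667 ± 5.12 and 667 ± 16.6 CPM (SD, n = 3), Msln, Muc16 and Krt19 had log2 fold changes of -0.09, -0.26 and -0.06, and the scarce keratin genes Krt8 (0.58, every knockdown library higher) and Krt18 (0.17) had positive ones. The part of these markers in the collagen result was not tested. Of 10 fibroblast markers 4 could be tested, 3 had no count (Tcf21, Lum and Meox1) and 3 were too low to test. Thy1 rose (0.31) and 0 fell. Pdgfra (-0.47) and Lox (-0.12) were lower in every knockdown library and Dcn (0.18) was higher in every one, but none of them passed. The summed level was 242 to 246 CPM in control and 243 to 245 CPM in knockdown libraries. Most of that sum was Lox and Dcn, which moved in opposite directions. Of 8 smooth muscle and pericyte markers Acta2 rose (0.21), Tagln did not pass (0.17) and 6 were too low to test. The sum was 604 to 680 CPM in control and 694 to 755 CPM in knockdown libraries, nearly all of it Tagln and Acta2. The defining markers Myh11, Rgs5 and Cspg4 had 1.5, 2 and 1 counts over all 6 libraries, Des had 17, Notch3 25 and Cnn1 54. Cartilage and leukocyte markers were scarce, with 2 of 7 at 0 in each list (Acan and Cnmd, Adgre1 and Itgam). Cartilage markers summed to 0.874 to 1.501 CPM in control and 0.536 to 1.67 CPM in knockdown libraries, and leukocyte markers to 3.44 to 4.76 and 3.67 to 4.22 CPM.

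**Figure D2:**
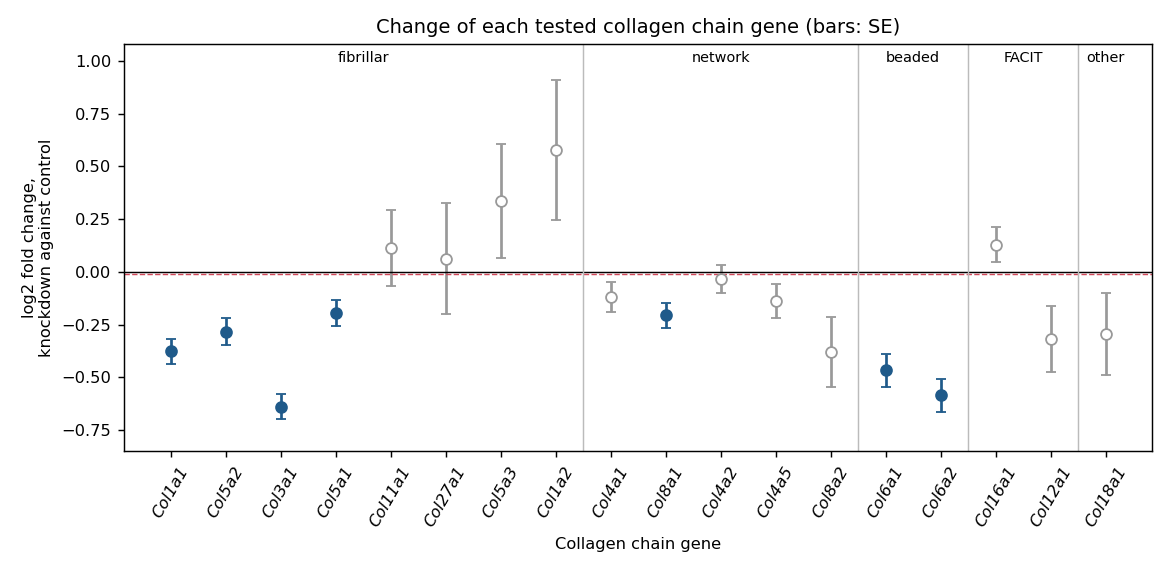
log2 fold change of each tested collagen chain gene, knockdown against control, with its SE. Filled blue points passed the test and open grey points did not, the dashed line is the median of all tested genes at -0.01, and the filled points are 4 fibrillar, 1 network and 2 beaded genes, all below 0.

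The 4 abundant fibrillar genes all fell, while the 4 scarce ones did not pass. Col3a1 (ENSMUSG00000026043, GRCm39 chromosome 1, 45350698 to 45388866), which encodes the single chain of homotrimeric type III collagen found with type I in distensible tissues and vessel walls, had 354, 381 and 374 CPM in control and 226, 237 and 250.3 CPM in knockdown libraries. The groups stood far apart, and the gene fell by 0.64 on the log2 scale (SE 0.06, edgeR adjusted p = 1.17e-05) (a percent change in the fitted value of -35.8%). Col1a1 (ENSMUSG00000001506, chromosome 11, 94827050 to 94843868), the main chain of type I collagen and the most abundant collagen here, had 1954, 1923 and 2016 CPM in control and 1469.5, 1466 and 1604 CPM in knockdown libraries. Every knockdown library lay below every control, with a log2 fold change of -0.38 (SE 0.06, edgeR adjusted p = 0.000685). After correction for GC content and exon length it was -0.21 (edgeR adjusted p = 0.0168).

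Type V collagen nucleates fibrils and limits their width, and both of its abundant chains fell by smaller amounts. Col5a2 (ENSMUSG00000026042, chromosome 1, 45413481 to 45542442) had 1061, 1064 and 1116 CPM in control and 822, 869 and 972 CPM in knockdown libraries, without overlap. Its log2 fold change was -0.28 (SE 0.07, edgeR adjusted p = 0.00793). Leaving out knockdown replicate 1 (edgeR adjusted p = 0.0524) or knockdown replicate 2 (0.0528) ended this call, and GC and length correction gave -0.19 (0.0405). Col5a1 (ENSMUSG00000026837, chromosome 2, 27776437 to 27929526) had 91.5, 94.6 and 94.5 CPM in control and 84.5, 78.2 and 82.2 CPM in knockdown libraries, again without overlap but only slightly lower. Its log2 fold change of -0.20 (SE 0.06, edgeR adjusted p = 0.0355) became -0.01 (adjusted p = 0.918) after correction for GC content and exon length, and the call was lost in 9 of 20 other fits.

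The other 4 fibrillar genes tested lay under 5 CPM in each library, and their groups overlapped. Col11a1, a chain of the type XI collagen of cartilage, ranged from 3.20 to 3.74 CPM in control and 3.03 to 4.21 CPM in knockdown libraries (log2 fold change 0.11, SE 0.18). Col5a3 had a log2 fold change of 0.34 (SE 0.27) and Col27a1, a gene of cartilage collagen, 0.06 (SE 0.26). Of the 3 fibrillar genes not tested, Col11a2 reached at most 14 counts, the cartilage gene Col2a1 2 and Col24a1 1.

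Col1a2, the partner chain of Col1a1 in ordinary type I collagen, was close to absent. Its counts (ENSMUSG00000029661, chromosome 6, 4504814 to 4541544) were 16, 8 and 13 in control and 14, 14 and 25 in knockdown libraries, beside Col1a1 counts of 14959 to 24773. Col1a1 counts exceeded Col1a2 counts by 707 to 2721 times in single libraries, and by 1339 to 5152 times per kilobase of exon. Col1a2 did not pass the test (log2 fold change 0.58, SE 0.33, edgeR adjusted p = 0.254), with overlapping groups. The log2 ratio of the chains was 10.87 ± 0.56 in control and 9.91 ± 0.39 (SD, n = 3) in knockdown libraries, without overlap and with no test, and it rests on these few Col1a2 counts. A long noncoding gene on the opposite strand shares 1308 exon bases with Col1a2 and had 0 to 3 counts, and the strand setting of the counting was not stated in the sources used here.

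Type VI collagen genes, which make the beaded filaments between basement membrane and interstitial fibrils, showed the same pairing of abundant and missing chains. Col6a2 (ENSMUSG00000020241, chromosome 10, 76431596 to 76459464) had 59.1, 61.6 and 61.6 CPM in control and 36.5, 39.0 and 46.1 CPM in knockdown libraries. Every knockdown library was lower than every control (log2 fold change -0.59, SE 0.08, edgeR adjusted p = 0.000237). Col6a1 (ENSMUSG00000001119, chromosome 10, 76544626 to 76562002) had 80.3, 94.8 and 102.9 CPM in control and 64.8, 67.2 and 69.4 CPM in knockdown libraries. Control replicate 1 was the lowest control, yet above all 3 knockdown libraries (log2 fold change -0.47, SE 0.08, edgeR adjusted p = 0.00134). Col6a3, the third chain of the common type VI heterotrimer, had 1 to 3 counts in each library, and Col6a4, Col6a5 and Col6a6, its alternatives, had at most 1. These 4 genes were not tested.

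Basement membrane genes of type IV did not pass the test. Col4a1 (ENSMUSG00000031502, chromosome 8, 11248423 to 11362826), a chain of the ubiquitous type IV trimer, had 309.8, 318 and 319 CPM in control and 286, 261 and 325 CPM in knockdown libraries. Knockdown replicate 3 exceeded every control, so the groups overlapped (log2 fold change -0.12, SE 0.07, edgeR adjusted p = 0.266). The value was -0.20 without knockdown replicate 3 (edgeR adjusted p = 0.0519) and -0.05 without knockdown replicate 2. Col4a2 (ENSMUSG00000031503, chromosome 8, 11362805 to 11499287), the other chain of that trimer, had 126, 129 and 129.6 CPM in control and 124, 115 and 137 CPM in knockdown libraries (log2 fold change -0.03, SE 0.07, and 0.03 without knockdown replicate 2). The same knockdown library was again highest and knockdown replicate 2 lowest. Col4a5, of the type IV trimers of kidney and other special membranes, had 25.1 to 28.6 CPM in control and 23.8 to 26.1 CPM in knockdown libraries (log2 fold change -0.14, SE 0.08), while Col4a3 had no count and Col4a4 and Col4a6 had 1 in all.

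Type VIII collagen, made by endothelial and smooth muscle cells, was the only network type with a call. Col8a1 (ENSMUSG00000068196, chromosome 16, 57444621 to 57575100) had 178, 189 and 194.5 CPM in control and 159, 159.9 and 168 CPM in knockdown libraries. The groups did not overlap, and the log2 fold change was -0.21 (SE 0.06, edgeR adjusted p = 0.0244). Of the 6 fits without 1 library, 4 ended the call, those without control replicate 2, control replicate 3, knockdown replicate 1 or knockdown replicate 2, where the adjusted p reached 0.122, and after GC and length correction (0.0524). Col8a2 had 4.27, 4.24 and 3.91 CPM in control and 3.21, 3.43 and 2.90 CPM in knockdown libraries, without overlap but short of the threshold (log2 fold change -0.38, SE 0.17, edgeR adjusted p = 0.143). Col10a1, the third network gene outside type IV and a marker of hypertrophic cartilage, had no count.

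Neither tested FACIT gene passed. Col16a1 had 19.7, 18.3 and 18.1 CPM in control and 19.7, 20.5 and 21.1 CPM in knockdown libraries, so every knockdown value was higher, although the first libraries of the groups were nearly equal (log2 fold change 0.13, SE 0.08, edgeR adjusted p = 0.318). After GC and length correction it rose by 0.33 (edgeR adjusted p = 0.0182). Col12a1, whose long chains bridge fibrils, had 6.60, 9.71 and 9.12 CPM in control and 6.65, 5.78 and 8.08 CPM in knockdown libraries. Control replicate 1 lay within the knockdown range (log2 fold change -0.32, SE 0.16, edgeR adjusted p = 0.178), and without that library Col12a1 fell by 0.45 on the log2 scale (edgeR adjusted p = 0.0295). Of the FACIT genes not tested, Col9a1, Col9a2, Col19a1 and Col22a1 had no count, and Col9a3, Col14a1 and Col20a1 reached at most 2. In the remaining class only Col18a1, the source of endostatin, was tested, with 2.69 to 3.36 CPM in control and 2.32 to 2.74 CPM in knockdown libraries (log2 fold change -0.30, SE 0.19). Col7a1, the anchoring fibril gene of skin, reached 9 counts, Col13a1, Col15a1 and Col17a1 at most 2, and Col23a1, Col25a1, Col26a1 and Col28a1 had none. A count of 0 allows up to 3 counts, or 0.253 to 0.291 CPM across the libraries (counting error only).

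Summed over classes, fibrillar genes gave 3469.55, 3470.14 and 3609 CPM in control and 2610.14, 2660.01 and 2919 CPM in knockdown libraries, a difference of -22.4% in the mean with no overlap. The beaded genes gave 154 ± 12.8 and 108 ± 7.26 CPM (SD, n = 3), again without overlap. Network genes summed to 663 ± 17.2 and 607 ± 47.4 CPM and FACIT genes to 27.3 ± 0.83 and 27.5 ± 1.76 CPM (SD, n = 3), and in both classes the groups overlapped. These sums carry no test and no correction for GC content or length, and most of the fibrillar sum is Col1a1 and Col5a2.

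**Figure D3:**
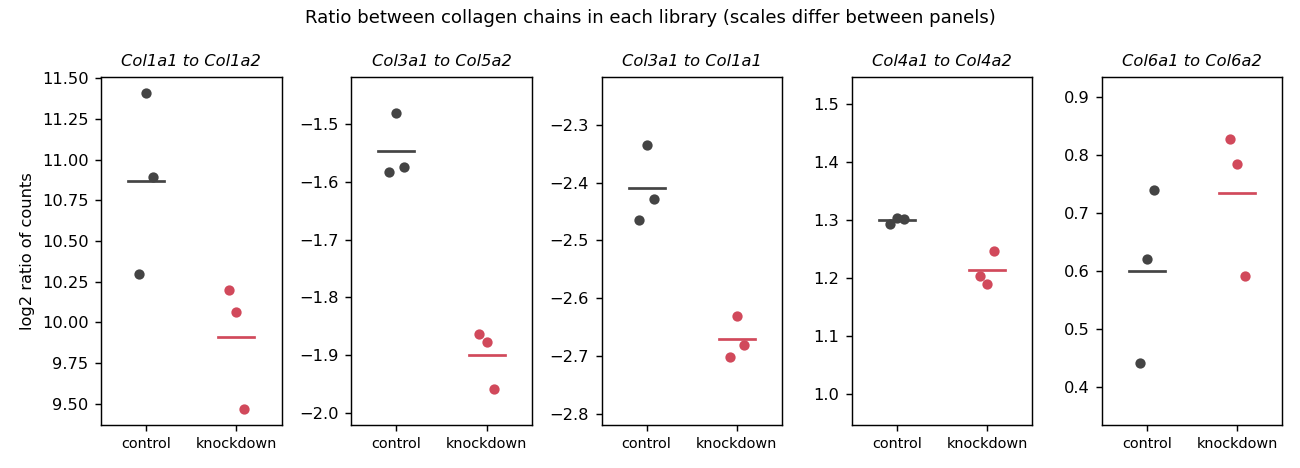
log2 ratio of counts between pairs of collagen chain genes, 1 point per library with a line at the mean of 3 control (grey) and 3 knockdown (red) libraries, each panel on its own scale. Col1a1 to Col1a2, Col3a1 to Col5a2, Col3a1 to Col1a1 and Col4a1 to Col4a2 were lower in every knockdown library, Col6a1 to Col6a2 overlapped, and Col5a2 to Col1a1, not plotted, was higher in every knockdown library.

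Several collagen genes lie side by side, and neighbours did not all shift alike. Col3a1 and Col5a2 lie tail to tail on chromosome 1 with 24614 bases between them. The log2 ratio of Col3a1 to Col5a2 counts was -1.55 ± 0.06 in control and -1.90 ± 0.05 (SD, n = 3) in knockdown libraries, a difference of -0.35 with no overlap. Against Col1a1, on another chromosome, Col3a1 went from -2.41 ± 0.07 to -2.67 ± 0.04 (SD, n = 3), also without overlap. The ratio of Col5a2 to Col1a1 went the other way, from -0.86 ± 0.02 to -0.77 ± 0.06 (SD, n = 3), with every knockdown library higher. These 3 pairs were chosen after the values were seen, and the ratios carry no correction for GC content or length. With that correction the log2 fold changes of Col5a2 and Col1a1 were close, at -0.19 and -0.21, and that of Col3a1 was -0.51. Col6a2 and Col6a1 lie in the same direction on chromosome 10, 85161 bases apart, and their ratio overlapped between groups (0.60 ± 0.15 and 0.73 ± 0.13 for Col6a1 to Col6a2, SD, n = 3).

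Col4a1 and Col4a2 are transcribed away from each other from overlapping starts on chromosome 8, sharing 22 exon bases, and their ratio hardly varied among control libraries. Col4a1 had 2.45, 2.47 and 2.46 times the Col4a2 counts in control and 2.303, 2.28 and 2.37 times in knockdown libraries, a log2 difference of -0.09 without overlap. The other head-to-head type IV pairs were unequal or silent. Col4a5 had 258 to 348 counts beside at most 1 for Col4a6, 1308 bases away, and Col4a4 and Col4a3, 71 bases apart, had 1 count between them. For type V, Col5a1 counts were 0.0846 to 0.103 of Col5a2 counts, with overlapping groups, and Col8a1 counts were 41.6 to 57.9 times those of Col8a2, likewise.

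Base composition and length moved with these results. All 18 tested collagen genes had longer exon sequence than the median tested gene (4380 to 15228 against 4036.5 bases), and 15 had a higher GC content (median 57.2% against 49.4%). Genes called lower across the whole table had a median GC content of 52.8%, and genes called higher 46.2%. With per-library trends in GC content and length removed, 5 collagen genes fell (Col1a1, Col3a1, Col5a2, Col6a1 and Col6a2) and 1 rose (Col16a1). In that fit 5.21% of all tested genes were called lower, and 976 of 13372 were called higher. The corrected log2 fold changes were -0.51 for Col3a1, -0.44 for Col6a2, -0.36 for Col6a1, -0.21 for Col1a1 and -0.19 for Col5a2, with edgeR adjusted p-values from 8.27e-06 to 0.0405. The value of Col1a1 was thus smaller by more than 1.5 times, and that of Col4a1 went to 0.04 and that of Col4a2 to 0.15, neither past the threshold.

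**Figure D4:**
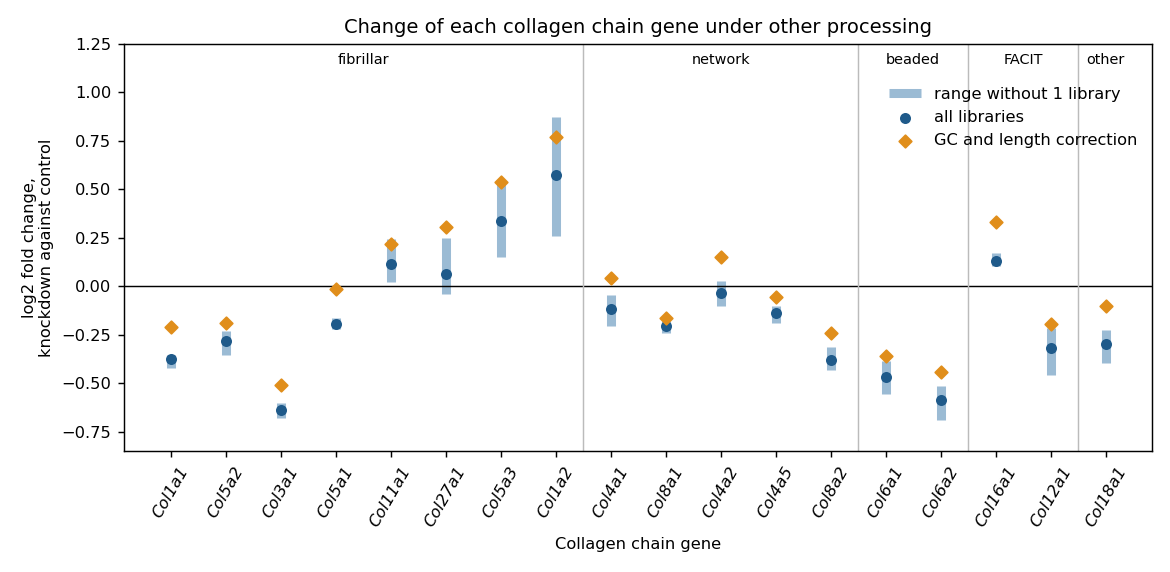
log2 fold change of each tested collagen chain gene with all libraries (blue points), after GC and length correction (orange diamonds) and its range over the 6 fits that leave out 1 library (pale bars). All 7 genes that fell stay below 0 throughout, although Col5a1 moves to -0.01 with the correction. Col4a5, Col8a2, Col12a1 and Col18a1, which did not pass with all libraries, also stay below 0, and every diamond lies above its blue point.

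Genes that make, export and remodel collagen were taken from 6 lists of 98 genes, 74 of them tested, of which 23 fell and 2 rose. The median log2 fold change of the 74 was -0.16, against -0.01 over all tested genes, of which 8.44% were called lower. The lists were chosen with earlier results of these data known, so this comparison is description only. In the endoplasmic reticulum list 6 of 17 fell and 0 rose. They included Serpinh1, which encodes the collagen chaperone HSP47 and averaged 1905 ± 106 CPM in control against 1580.5 ± 59.8 CPM (SD, n = 3; edgeR adjusted p = 0.00647 for a log2 fold change of -0.27), Fkbp10 (-0.38), a prolyl isomerase for procollagen, Colgalt1 (-0.31), which adds galactose to hydroxylysine, and P3h1 (-0.44), a prolyl 3-hydroxylase. In the export and processing list 3 of 13 fell and 1 rose. The genes that fell were Creb3l1 (-0.61), a membrane-bound transcription factor that acts on collagen genes, Mia3 (-0.28), whose product loads procollagen for export, and Pcolce (-0.30), an enhancer of propeptide removal, and Sar1b, a coat GTPase, rose (0.57). Creb3l1 averaged 78.6 ± 3.21 CPM in control and 51.5 ± 1.47 CPM (SD, n = 3) in knockdown libraries.

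Among crosslinking genes and fibril partners 4 of 9 fell and 0 rose: the small proteoglycan genes Bgn (-0.57) and Fmod (-0.76), the fibronectin gene Fn1 (-0.21) and the collagen-binding gene Sparc (-0.17). The lysyl oxidase gene Lox did not pass (156 ± 3.88 and 143 ± 5.38 CPM, SD, n = 3). Dcn, another small proteoglycan gene, did not pass either, but unlike Bgn and Fmod it was higher in every knockdown library (log2 fold change 0.18). Of 5 tested receptor genes 2 fell, Itga1 (-0.86), a collagen-binding integrin subunit, and Ddr1 (-0.19), a collagen-sensing kinase, and 0 rose. Of 8 degradation genes 3 fell, Timp3 (-0.67), Mmp14 (-0.43) and Mmp2 (-0.30), and 1 rose, the cathepsin gene Ctsl (0.17), so a protease inhibitor and collagen-cleaving proteases were lower together. Of 22 TGF-beta and regulator genes 5 fell and 0 rose, among them the ligand genes Tgfb2 (-0.52), Tgfb3 (-0.47) and Tgfb1 (-0.45) and the repressor gene Ski (-0.23). Ccn2, a common TGF-beta and YAP readout, was level at 683 ± 20.98 and 683 ± 17.7 CPM (SD, n = 3) and did not pass the test. After GC and length correction 15 genes of the lists were lower. In that fit 5.21% of all tested genes were called lower, against 8.44% in the fit that gave the counts above.

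**Figure D5:**
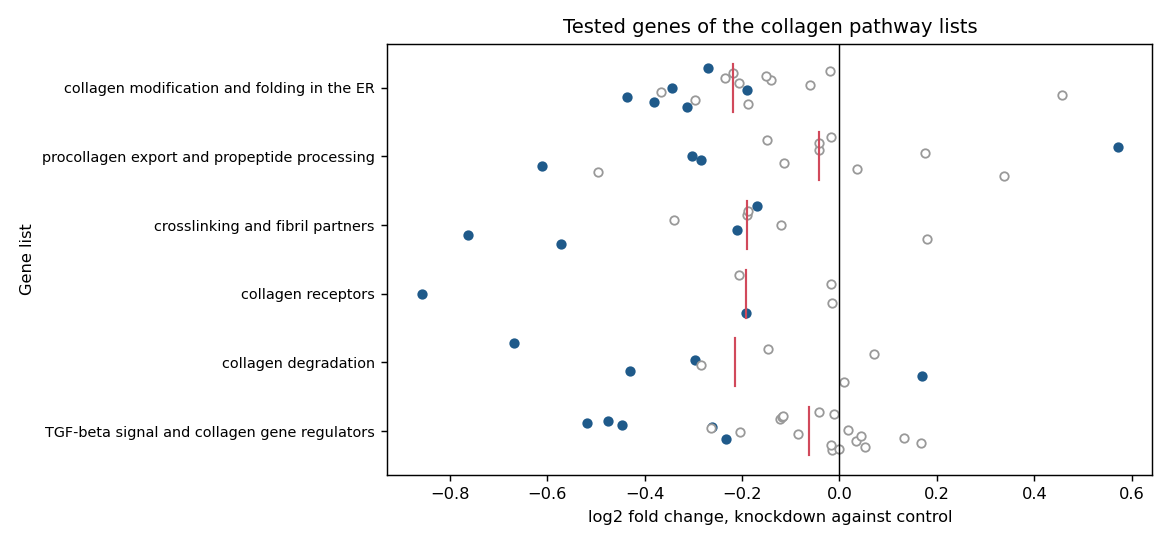
log2 fold change of each tested gene in the 6 collagen pathway lists, knockdown against control, with filled points for genes that passed the test, open points for those that did not and a red line at each list's median. The medians run from -0.22 in the endoplasmic reticulum list to -0.04 in the export list, and 23 of the 25 filled points lie below 0.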

How the data were processed

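Per the labels' protocols, libraries were tagmented cDNA from messenger RNA. Tools listed in the submitters' processing notes are STAR 2.7.11 and SAMtools 1.22.1, beside fastp 0.24.0, FastQC 0.12.1 and MultiQC 1.32, with the build GRCm39; no read counter, strand setting or annotation release was stated. The authors deposited estimated counts per gene, of which 29% of nonzero ones are not whole (tolerance 1e-06). The deposited CPM equal each count divided by the library total. The 92 spike-in rows were left out and counts were rounded.

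Genes passing filterByExpr were scaled by TMM and tested with edgeR 4.0.16 in R 4.3.3 (glmQLFit with a robust prior, glmQLFTest), knockdown against control without a block; p-values were adjusted over all genes by Benjamini-Hochberg, with a threshold of 0.05. The robust prior was taken up after the counts with and without it were seen. The size of the log2 fold change over the root of F gives the SE. CPM means use TMM-scaled library sizes. Exon length is the deposited one, and GC content came from GRCm38 transcripts (longest per gene, found for 12787 of 13372 tested genes and all 18 collagen genes). Other fits used DESeq2 1.42.0, limma-voom (limma 3.58.1), other scalings and filters, a replicate block, GC and length trends (mgcv 1.9.3) and each library left out. The members and lists were chosen with earlier results of these data known. Every tested member is named, with up to 4 changed genes of each pathway list by smallest adjusted p, and a few further list genes were named after their values were seen. A planned description of protein sequences was not made. The workflow was tested on simulated data.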

Additional observations from a re-analysis of the deposited data

How the results depend on the processing

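The 7 falls among collagen genes were 7 under RLE, upper-quartile and library-size scaling, no filter, the 10 CPM filter, protein-coding genes only and limma-voom, and 6 with DESeq2. The calls of Col1a1, Col3a1, Col6a1 and Col6a2 held in all 20 other fits. Without 1 library, 4 to 8 collagen genes fell, 2 to 4 of them fibrillar, 0 to 1 network and 0 to 1 FACIT; the count was 4 without knockdown replicate 1 or 2, and 0 network genes fell without control replicate 2 or 3 or either of those. Same-numbered libraries did not deviate together (correlations of -0.211, -0.0518 and -0.0498). No label says whether a number marks a shared culture or day, and correlations within such small groups cannot settle it. A replicate block gave 6 collagen falls (Col5a1 lost) and 2001 changed genes against 2324. GC and length correction gave 0 network falls and 1 rise, a FACIT gene, both alone and with the block. Over all genes, 1195 were higher and 1129 lower (51.4% higher), and library-size scaling gave 853 and 1740 (32.9% higher). The lower count was 625 with DESeq2, 697 after GC and length correction, 544 with the block added to it, and 502 to 1453 without 1 library, where the higher count ran from 527 to 1624 (both lowest without control replicate 2, highest without control replicate 1). Of pathway genes, 15 fell after correction, 14 with the block as well, and 14 to 28 without 1 library; rises numbered 4 with upper-quartile scaling, the 10 CPM filter or protein-coding genes only, 1 with library-size scaling, no filter or the corrected block fit, and 1 to 3 without 1 library. With few counts, as for Col1a2, depth limits what could be detected.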
